A study of Mus musculus with 4 samples.

Results

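The genes described here are 10 genes of MHC class I antigen presentation and of the surface ligands PD-L1 and CD47: H2-K1, H2-D1, B2m, Tap1, Tap2, Tapbp, Erap1, Nlrc5, Cd274 and Cd47. They were chosen by name, as every array probe whose gene name equals one of the 10, which gave 19 probes among the 36918 gene names on the array. Expression was measured on 4 one-colour Agilent arrays of mouse cancer cells of the C57BL/6 strain, from pancreatic cancer. Cells called K5 and K6 each received the vehicle DMSO (control) or 100 nM halofuginone over 24 hours, with 1 array for each line and condition. Halofuginone is a plant alkaloid derivative that blocks the charging of proline onto its tRNA. The labels do not say what sets K5 apart from K6, here called lines, nor whether the samples are separate cultures. P-values therefore measure the spread between these 4 arrays alone, which may be technical.

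MHC class I molecules show peptides made inside the cell to cytotoxic T cells. A heavy chain, encoded in C57BL/6 mice by H2-K1 and H2-D1, pairs with beta-2 microglobulin (B2m) and is loaded in the endoplasmic reticulum, where TAP1 and TAP2 pump in peptides, tapasin (Tapbp) holds the empty molecule at the pump, and the aminopeptidase ERAP1 trims the peptides. NLRC5 switches on the genes of this pathway. PD-L1 (Cd274) binds PD-1 on T cells and dampens them, and CD47 is a signal to phagocytes not to engulf the cell. Low class I and high PD-L1 are known routes by which pancreatic tumours escape T cells.

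Values are log2 signal relative to the 75th percentile of the same array, so 0 is the level of that percentile and each unit is a doubling. They are compared between arrays for one probe and not between genes, since probes differ in brightness. Spots well above background made up 47.2% and 48.6% on the K5 and K6 control arrays and 53.1% and 54.0% under halofuginone. No spot was saturated. The lowest signal that counts as well above background was -4.17 and -4.25 in these controls and -4.92 and -5.01 under halofuginone. Detection of dim genes thus differs between the conditions. Precision is limited by how few arrays there are. All 10 markers of epithelial and ductal cells in a marker list (keratins, Epcam, Cdh1 and others) were well above background on all 4 arrays, as were 6 of 10 leukocyte and myeloid markers with a probe (Ptprc, Cd14, Cd68, Itgam, Csf1r and Cd3e), 1 of 8 fibroblast markers, 0 of 5 endothelial markers and 2 of 5 acinar markers. Among the leukocyte markers, Adgre1 and Lyz2 were above background on 0 arrays.

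The part of the probe that reads each result is shown so that the reader can place the measurement, because 2 probes of one gene did not always give the same change. The first 30 of 60 bases are printed, 5′ to 3′, for the brighter and the dimmer Tapbp probe, the Tap2 probe and the Cd274 probe. In the Cd274 probe, capitals mark bases 7 to 24, a run of 18 bases that also occurs, on the opposite strand, in a probe of the non-coding gene Gm36243.
Tapbp brighter probe: agcagtagtctagagacggaaaggtccatg
Tapbp dimmer probe: ggaagttctagaaaggttgaggggaagacg
Tap2 brighter probe: tcaggataaagattgggaccgttttggact
Cd274 probe: ttgatgAGTCTCATGTTAATGTCTtgtttg
The Gm36243 probe was well above background on 1 of 4 arrays, halofuginone K5, where Cd274 was lower than in its control. On mm9, the build in the files, the brighter Tapbp probe lies on the + strand at chr17:34066022-34066081, the dimmer one at chr17:34063096-34063155, the Tap2 probe at chr17:34353116-34353175 and the Cd274 probe at chr19:29462363-29462422. Whether these stretches are coding or not was not analysed here, since no mm9 annotation was used. Of the 19 probes, 15 carry an accession found in the RefSeq gene table, and in all 15 the symbol there equals the name in the files.

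After halofuginone, the gene for tapasin fell in both lines, the Tap2 and Cd274 signals were lower in both lines without passing the test, and the heavy chains H2-K1 and H2-D1, B2m and Cd47 were not called in either direction. Genes were tested when 2 or more arrays had their brightest probe well above background, which left 19093 genes, 9 of the 10 among them. The test was limma with the line as a block, with p-values adjusted by Benjamini-Hochberg over all 19093 genes and a threshold of 0.05. Of the 9, 0 were higher and 1, Tapbp, was lower, beside 3.88% of all tested genes called higher and 5.08% called lower. The 9 had a median of 0.18 in K5 and -0.29 in K6, beside -0.03 and 0.04 over all tested genes. Counted without a test at 2-fold or more, with the brighter array well above background, 1 of the 9 was higher in K5 (Nlrc5) and 3 were lower (Tap2, Tapbp, Cd274), beside 14.1% and 14.9% of all tested genes. In K6, 0 were higher by that measure and the same 3 genes were lower, beside 16.4% of all tested genes in each direction. The fit has 1 residual degree of freedom, taken up by how far K5 and K6 differ in their response. Genes with opposite responses could hardly pass, and most of the weight in each SE comes from a variance pooled over genes.

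**Figure D1:**
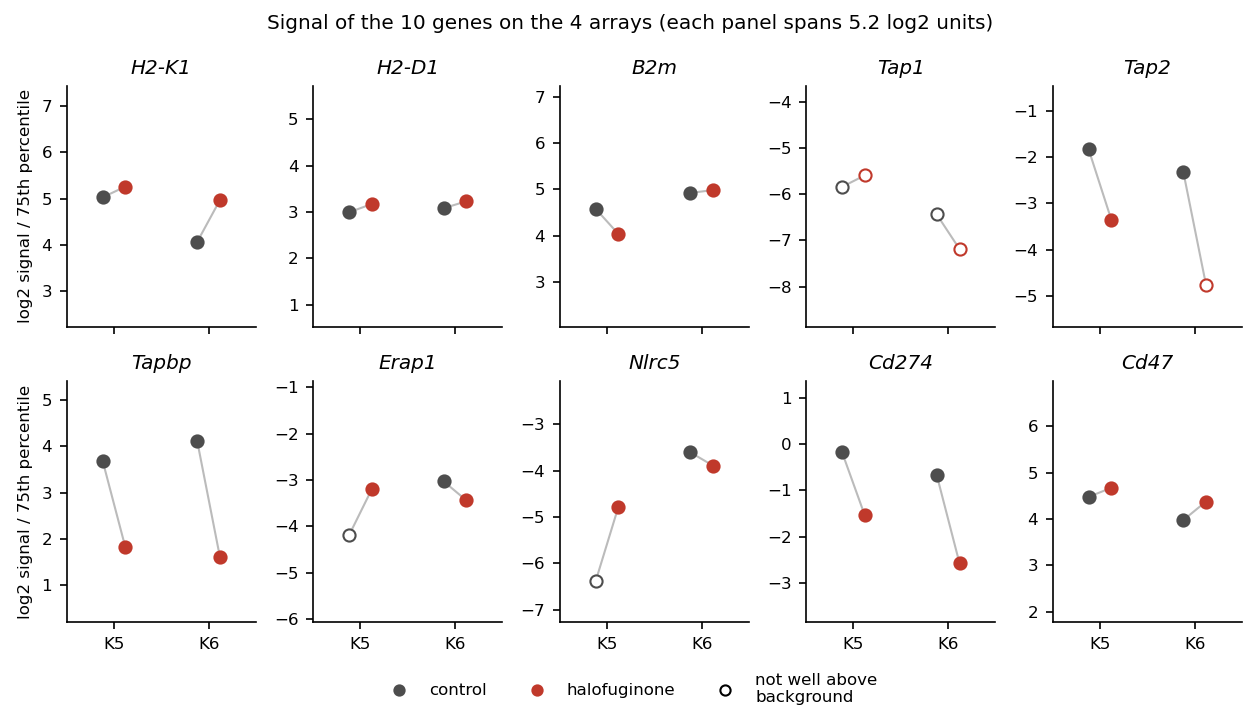
Signal of the 10 genes, 1 panel per gene and 1 point per array: log2 signal over the array's 75th percentile (y axis, each panel spanning the same number of log2 units) in K5 and K6, grey for control and red for halofuginone, with open points for readings not well above background. Tapbp drops from 3.69 to 1.82 in K5 and from 4.10 to 1.60 in K6, and Tap2 and Cd274 lie lower under halofuginone in both lines, while all 4 Tap1 points are open.

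Tapasin, which bridges the peptide pump and the empty class I molecule, gave the 1 call. The brighter Tapbp probe read 3.69 in control K5 and 4.10 in control K6, against 1.82 and 1.60 in the same lines after halofuginone. Both control arrays thus lie above both halofuginone arrays, with no overlap. Such a separation, here and below, says little with 2 arrays a side, since a permutation of them cannot give a p below 0.333. Tapbp fell by 2.18 on the log2 scale (SE 0.30, limma adjusted p = 0.0436), a 4.54-fold lower level, in 2 of 2 lines. The dimmer probe, at another position in the gene, read -1.36 and -1.14 in the K5 and K6 controls and -2.76 and -3.12 after halofuginone, again with no overlap. Fitted as a probe of its own, its change was -1.69 (SE 0.30, limma adjusted p = 0.0570). The Tapbp call is close to the threshold: it held under 7 of 12 other settings with all 4 arrays and was lost under 5, with adjusted p from 0.000163 to 0.111 and a change from -2.31 to -1.94.

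The peptide pump was read for 1 of its subunits. Tap2, the subunit with a probe above background, read -1.83 and -2.32 in the K5 and K6 controls and -3.35 and -4.76 in the treated K5 and K6 cells. The fold in K5 was 2.87. The K6 halofuginone array is not well above background, so the 5.43-fold in K6 is as read and no lower limit. The K6 change lay between -2.62 and -1.21 over 6 scalings. Bounds given below, worded as at least, take the brighter signal of a comparison. They set it against whichever is higher of the dim array's own signal and the lowest that counts as well above background there. The fitted Tap2 change of -1.98 (SE 0.34) missed the threshold (limma adjusted p = 0.0506). It passed under 5 of 11 other settings, with adjusted p from 0.00721 to 0.154, and a change from -2.11 to -1.14, the last of these with normexp background correction. The other Tap2 probe stayed at background on all arrays. Tap1, the partner subunit, was not well above background with either of its 2 probes on any of the 4 arrays, and it was not tested. Readings of such dim probes are not levels, and they differed between arrays as a block: halofuginone minus control was -0.73 and -0.74 for a Tap1 probe, and -0.75 and -0.76 for the dim Nlrc5 probe, in K5 and K6.

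PD-L1, the ligand of PD-1, was lower under halofuginone on its single probe. Cd274 read -0.18 in control K5 and -0.67 in control K6, against -1.54 and -2.57 in the same lines after halofuginone, all well above background. Both halofuginone arrays lie below both control arrays, and K6 lies below K5 in each condition. The change was -1.36 in K5 and -1.90 in K6, a mean of -1.63 (SE 0.29), or 3.10-fold, with a limma adjusted p of 0.0520, above the threshold. Under 4 of 12 other settings it passed, with adjusted p from 0.00268 to 0.154, and the change lay between -1.76 and -1.35. Leukocyte and myeloid markers were mostly lower under halofuginone as well: of 6 tested, 5 fell in both lines and 1 rose in both. Cd14 and Cd68 were called lower (limma adjusted p = 0.0399 and 0.0441) and 4 did not pass. Of these 4, Csf1r had changes of -1.09 in K5 and -1.21 in K6, Cd3e of -1.04 and -0.63, and Itgam of -0.24 and -0.34. The pan-leukocyte marker Ptprc had changes of 1.04 in K5 and 0.17 in K6. The summed signal of that list, in multiples of each array's 75th percentile, was 31.8 and 28.9 in the controls and 14.2 and 10.5 under halofuginone. Most of that drop is Cd14, without which the sum was 12.6 in each control and 11.3 and 9.54 under halofuginone. The part of these markers in the Tapbp, Tap2 and Cd274 values was not tested.

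The classical heavy chains were bright on every array and neither was called. The brighter H2-K1 probe read 5.03 and 4.07 in the K5 and K6 controls and 5.26 and 4.97 in the treated K5 and K6 cells. Control K6 lies apart below the other 3 arrays, and the control K5 value lies above the halofuginone K6 value, so the conditions overlap. The change was 0.23 in K5 and 0.90 in K6, a mean of 0.57 (SE 0.31, limma adjusted p = 0.270). The other H2-K1 probe read 3.43 and 2.84 in the controls and 3.25 and 3.12 after halofuginone, a change of -0.18 in K5 and 0.28 in K6. Within K5 the probes of H2-K1 thus differ in direction. H2-D1, the other classical heavy chain, read 2.99 in control K5 and 3.08 in control K6, against 3.17 and 3.23 in the same lines after halofuginone. Its change of 0.16 (SE 0.26, limma adjusted p = 0.680) is smaller than its error, and the K6 value takes the opposite sign under 3 of 6 ways of scaling the arrays, from -0.05 to 0.16.

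Class I genes are near copies of each other, which bears on what their probes read. The dimmer H2-K1 probe shares 29 bases in a row with a probe named for the class I gene H2-L. The run is given here in capitals within bases 15 to 44 of each probe. The same run stands in a probe of H2-T23, a non-classical class I gene.
H2-K1 dimmer probe: TGGAGCTGTGGTGGCTTTTGTGATGAAGAt
H2-L probe: TGGAGCTGTGGTGGCTTTTGTGATGAAGAg
The H2-L probe differed by -0.42 in K5 and -0.15 in K6 and the H2-T23 probe by -1.02 and -0.67, with neither gene called. How far the dimmer H2-K1 probe reads RNA of other class I genes cannot be told from the arrays, and its values are uncertain for that reason. The brighter H2-K1 probe (mm9 chr17:34133055-34133114, - strand) and the H2-D1 probe (mm9 chr17:35403886-35403945, + strand) share no run of 18 bases with a probe of another gene. Probes were compared with other probes and not with transcripts, so whether these also read RNA of other class I genes was not tested.

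**Figure D2:**
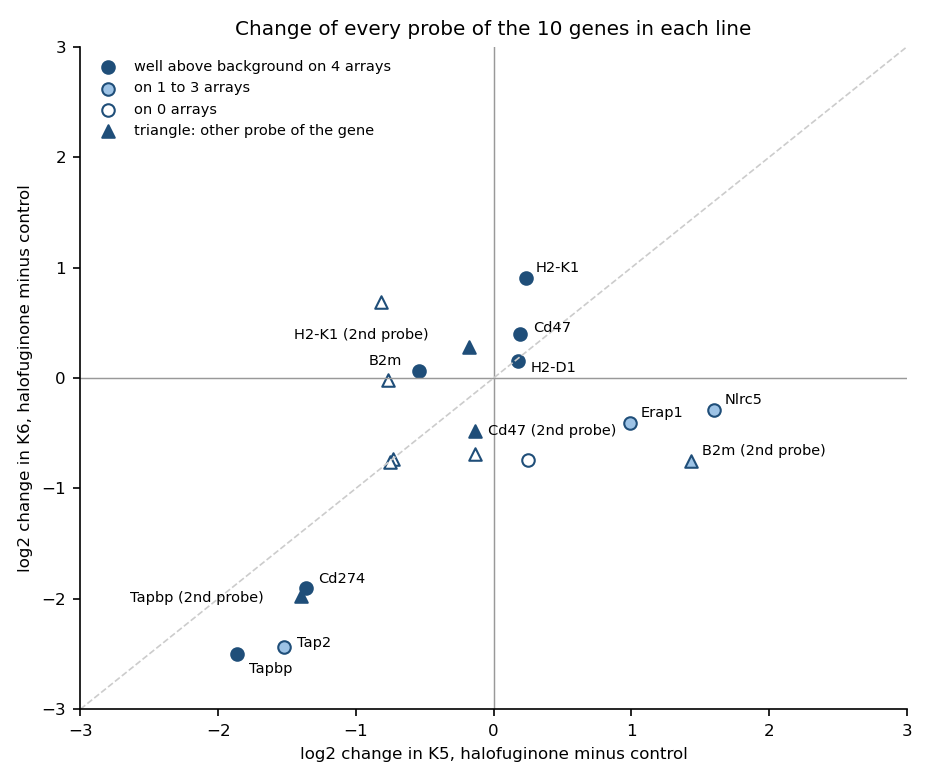
Change after halofuginone of all 19 probes of the 10 genes, in log2 units, in K5 (x axis) and K6 (y axis), filled by the number of arrays on which the probe was well above background; circles are the probe that stands for the gene, triangles its other probes, and the dashed line marks equal change. Both Tapbp probes, Tap2 and Cd274 lie low on both axes, the Cd47 probes lie on either side of 0 on both axes, and Erap1 (0.99 and -0.41) and Nlrc5 (1.60 and -0.29) lie right of and below it.

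Beta-2 microglobulin, the shared light chain, was also bright. B2m read 4.58 and 4.92 in the K5 and K6 controls and 4.04 and 4.98 in the treated K5 and K6 cells. The halofuginone K5 array is the lowest, and the K6 arrays lie above both K5 arrays. The change was -0.54 in K5 and 0.06 in K6, a mean of -0.24 (SE 0.30, limma adjusted p = 0.602), and the sign in K6 is negative under 3 of 6 scalings. A further B2m probe was well above background on control K6 alone.

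The aminopeptidase gene Erap1 and the activator gene Nlrc5 were dim, with changes of opposite sign in the lines. Erap1 read -4.19 in control K5, where it was not well above background, and -3.20 after halofuginone, against -3.03 and -3.44 in K6. In K5 it was at least 1.96-fold higher under halofuginone, and in K6 the change was -0.41. Its mean change of 0.29 (SE 0.44) had a limma adjusted p of 0.667. Nlrc5 read -6.39 in control K5, again too dim to count as above background, and -4.78 after halofuginone, against -3.60 and -3.89 in K6. The K5 change, 1.60 as read, gives no fold bound above 1, since the halofuginone K5 signal lies below -4.17, the lowest signal that counts as well above background on the control K5 array. The Nlrc5 change was -0.29 in K6, and its mean change of 0.66 (SE 0.54) had a limma adjusted p of 0.440. The remaining 2 Erap1 probes and the other Nlrc5 probe were above background on 0 arrays.

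CD47, the signal against phagocytosis, was bright and was not called. Cd47 read 4.48 in control K5 and 3.98 in control K6, against 4.68 and 4.38 in the same lines after halofuginone, so the conditions overlap. Its change of 0.30 (SE 0.26) had a limma adjusted p of 0.466. The dimmer Cd47 probe read 1.63 and 1.47 in the controls and 1.49 and 0.99 after halofuginone, a change of -0.13 in K5 and -0.48 in K6. The Cd47 probes thus differ in direction in both lines, and no direction can be given for the gene.

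Between the lines, 0 of the 9 tested genes were called in K6 against K5 by limma in the same fit, beside 0.173% of all tested genes (33 of 19093). None of the other settings called any of the 9. At an unadjusted limma p under 0.05 there was 1 of 9, beside 2967 of the 19093 tested genes. That gene was Nlrc5, with a fitted difference of 1.84 (SE 0.54, unadjusted p = 0.0273, limma adjusted p = 0.264) that uses the dim control K5 reading. The difference was 0.42 with dim values raised to a common floor and 0.56 with normexp, and among controls the level was at least 1.48-fold higher in K6. B2m was 0.64 higher in K6 (SE 0.30), by 0.34 in controls and 0.95 under halofuginone, with a limma adjusted p of 0.397. H2-K1 had a difference of -0.62 (SE 0.31, limma adjusted p = 0.416), with -0.96 in controls and -0.29 under halofuginone. Cd274 had a difference of -0.76 (SE 0.29, limma adjusted p = 0.338) and Tap2 one of -0.95 (SE 0.34, limma adjusted p = 0.326). Differences for Cd47, Erap1, Tapbp and H2-D1 were -0.40, 0.46, 0.10 and 0.07. A p that misses the threshold with 2 arrays a side does not show that the lines have equal levels. For each gene the order over the 4 arrays is that of single arrays, so the spread of neighbours in that order is not known.

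The promoters of the class I heavy chains and of B2m are shown because both classes of gene are known targets of NF-kappa-B and interferon signalling, whose regulators are described further on. Windows of 250 bases before to 50 after the start, from RefSeq on GRCm38.p6, were at hand for 8 of the 10 genes, in 10 windows. Searched on both strands, GAAANNGAA, a form of the interferon-stimulated response element, stands in the windows of B2m, Cd274 and Erap1, beside 8.56% of all 32851 windows. Other forms of that element were not searched. The NF-kappa-B consensus stands in those of H2-K1, H2-D1 and B2m, beside 5.81% of all windows. TTCNNNGAA (STAT site, 8.30% of all windows), TGACGTCA (CRE, 1.79%) and TTGCATCA (amino acid response element, 0.895%) stand in 0 of the 10. The stretches below are read 5′ to 3′ on the gene's strand, all before the start, with the matches in capitals.
H2-K1 promoter: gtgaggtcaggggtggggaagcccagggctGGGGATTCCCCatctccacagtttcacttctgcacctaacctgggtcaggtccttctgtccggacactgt
H2-D1 promoter: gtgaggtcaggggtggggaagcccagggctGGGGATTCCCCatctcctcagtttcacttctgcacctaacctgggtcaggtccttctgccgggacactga
B2m promoter: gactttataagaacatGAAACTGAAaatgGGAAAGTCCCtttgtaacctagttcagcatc
Cd274 promoter: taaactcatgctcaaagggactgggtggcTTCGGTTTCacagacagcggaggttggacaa
Erap1 promoter: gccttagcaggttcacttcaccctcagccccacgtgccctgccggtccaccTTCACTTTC
The H2-K1 and H2-D1 stretches are the same at 96 of 100 bases. In B2m the first match is GAAANNGAA and the second the NF-kappa-B consensus. In Cd274 and Erap1 the GAAANNGAA match lies on the other strand. After the NF-kappa-B match, the H2-K1 and H2-D1 stretches both hold tttcacttc, which GAAANNGAA does not match on either strand. Whether those letters act as a response element was not tested. On GRCm38.p6 the stretches are chr17:34000389-34000488 (- strand), chr17:35262893-35262992 (+), chr2:122147532-122147591 (+), chr19:29367333-29367392 (+) and chr13:74639793-74639852 (+). A match is a description of letters. The genes with a GAAANNGAA match, B2m, Cd274 and Erap1, had mean changes of -0.24, -1.63 and 0.29. Those with the NF-kappa-B consensus, H2-K1, H2-D1 and B2m, had 0.57, 0.16 and -0.24. A gene without a GAAANNGAA match may still hold another form of the element. Tapbp, the gene that fell, has a window with none of the 5 motifs, which says only that these letters are not in it.

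Lists of 6 kinds set the 10 genes beside the rest of the pathway. Of 136 genes listed, 103 were tested, and limma called 4 higher and 11 lower under halofuginone, beside the same 3.88% and 5.08% of all tested genes. H2-T24 and Cd74, counted as higher, were above background under halofuginone alone, so their calls rest on dim control readings. None of the 103 was called between the lines.

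Among other class I heavy chains, 1 of 20 tested genes rose and 4 fell. The non-classical genes H2-T9, H2-T10 and H2-T22, whose products include ligands of gamma-delta T cells, fell by 2.24, 2.48 and 2.06 on the log2 scale (SE 0.26, 0.27 and 0.27), with limma adjusted p of 0.0391, 0.0376 and 0.0422. They are near-identical copies, so their probes may read one another's RNA. Cd1d1, which presents lipids to natural killer T cells, was called lower (limma adjusted p = 0.0468). It went from 0.26 to -3.47 in K5, and in K6 from -0.35 to a reading not well above background, at least 25.3-fold lower. The fitted change of -5.29 (SE 0.83) uses that dim reading and is no measured size. H2-T24, not well above background in either control, entered the test through its halofuginone arrays alone, so its limma adjusted p of 0.0444 rests on dim control readings. Its fold is at least 1.98 over both lines, and its other probe, above background on 1 array, gave 0.31 in K5 and 1.64 in K6. Cd1d2 had changes of -2.06 in K5 and -0.84 in K6, short of the threshold (limma adjusted p = 0.0957). Median changes over the 20 were -0.62 (K5) and -0.18 (K6).

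For peptide supply and loading, the step before and beside tapasin, limma called 0 of 17 tested genes. The chaperone genes Calr, Canx and Pdia3 had changes of -0.81, -0.04 and -0.44 (SE 0.26, 0.26 and 0.28). Their limma adjusted p lay between 0.121 and 0.935. Tapbpl, which encodes the tapasin relative TAPBPR, had 0.12 (SE 0.26, limma adjusted p = 0.770). Psme1, a subunit of the proteasome activator PA28, read 4.25 and 3.41 in the K5 and K6 controls and 2.64 and 0.69 in the treated K5 and K6 cells. Its change of -2.16 (SE 0.38) missed the threshold (limma adjusted p = 0.0511). Psmb10, an immunoproteasome subunit, had changes of -0.70 in K5 and -2.14 in K6 (limma adjusted p = 0.118). The other immunoproteasome subunits, Psmb8 and Psmb9, were well above background on 0 and 1 arrays and were not tested, as with Tap1. Median changes over the 17 were 0.09 (K5) and 0.05 (K6).

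Among regulators of class I transcription and interferon signalling, 1 of 30 tested genes rose and 2 fell. Irf1, an interferon-induced activator of class I genes, fell by 2.48 on the log2 scale (SE 0.36, limma adjusted p = 0.0446), from 3.41 to 1.44 in K5 and from 3.40 to 0.41 in K6. Its other probe above background on 3 arrays gave a mean change of -2.27. Rfxank, a subunit of the RFX complex that binds class I and class II promoters, fell by 2.44 (SE 0.35, limma adjusted p = 0.0441). Nfyb, a subunit of the NF-Y complex that binds the same promoters, rose by 1.58 (SE 0.26, limma adjusted p = 0.0485). Its 3 other probes above background on all arrays gave mean changes of 1.25, 1.27 and 1.43. Median changes over the 30 were -0.14 (K5) and -0.16 (K6).

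**Figure D3:**
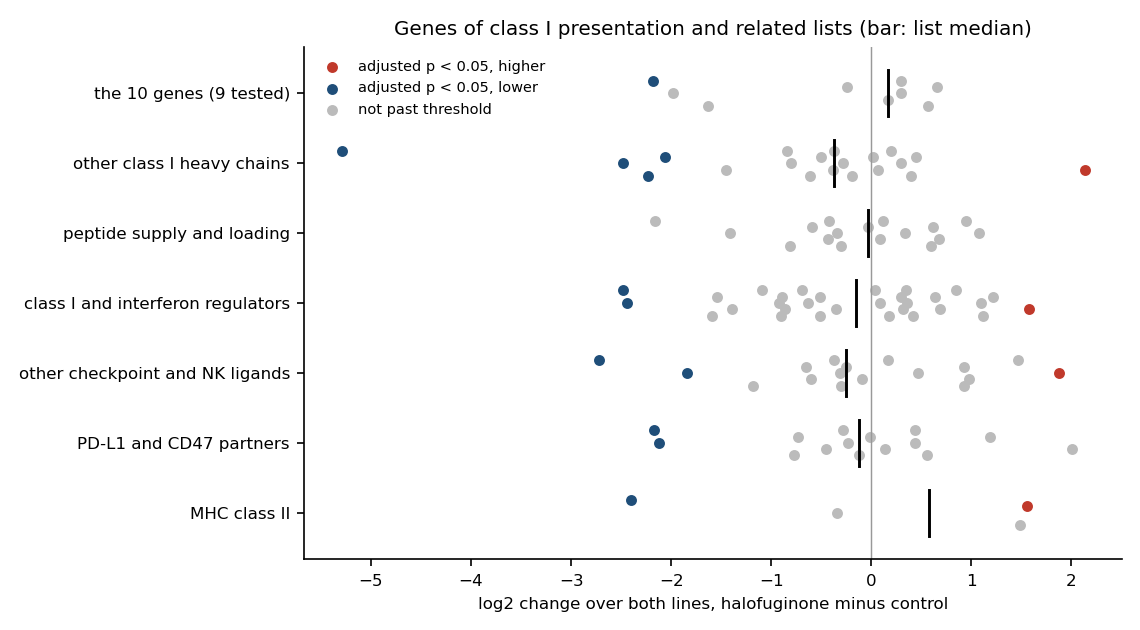
Change over both lines, in log2 units (x axis), of every tested gene of the 10 and of 6 lists of related genes (rows), with the list median as a black bar, red and blue points for genes with adjusted p under 0.05 and grey points for the rest. Tapbp is the blue point in the top row at -2.18, and Cd1d1, the blue point at -5.29, includes a reading not well above background, so its place is not a measured size.

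Other ligands that meet T cells or natural killer cells gave 1 higher and 2 lower of 17 tested. Lgals9, which encodes galectin-9, fell by 1.84 (SE 0.26, limma adjusted p = 0.0437). Ceacam1, an adhesion molecule that inhibits T and natural killer cells, was called lower (limma adjusted p = 0.0466). It fell by 2.05 log2 units in K5 and by 3.39 as read in K6, where the halofuginone array was dim, so the K6 value is no measured size. Pvrl3, which encodes nectin-3, rose (limma adjusted p = 0.0466), by 2.16 log2 units in K5 and at least 2.20-fold in K6, where its control was not well above background. Its other probes above background on 3 arrays gave mean changes of 1.16 and 1.11. Pdcd1lg2, the second ligand of PD-1, was well above background on control K5 alone and was not tested. Pdcd1lg2 read -2.99 on that array, against a lowest signal of -4.92 that counts as well above background on the halofuginone K5 array. Neither K6 array was well above background, so no fold is given over both lines. Vtcn1 had changes of -3.10 in K5 and 1.90 in K6 (limma adjusted p = 0.768). Cd86, Icosl and H60c were above background on 1 array each and were not tested.

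Genes whose products act on or bind PD-L1 and CD47 gave 0 higher and 2 lower of 15 tested. Thbs1, the gene of the CD47 ligand thrombospondin-1, fell by 2.13 (SE 0.31, limma adjusted p = 0.0442), and its other probe gave a mean change of -1.86. Lrp1, the receptor for calreticulin on phagocytes, fell by 2.17 (SE 0.26, limma adjusted p = 0.0392). Cmtm6, which keeps PD-L1 at the cell surface, had changes of 0.06 in K5 and 0.82 in K6 (limma adjusted p = 0.391). Qpctl, which modifies CD47 at its binding site for SIRP-alpha, had changes of -0.95 and -0.52 (limma adjusted p = 0.157), and its relative Qpct of 1.39 and 2.63 (limma adjusted p = 0.0596).

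MHC class II genes were mostly dim, with 4 of 10 on the array tested, 1 called higher and 1 lower. Cd74, the invariant chain, was the gene called higher (limma adjusted p = 0.0485), but it was above background on its halofuginone arrays alone and entered the test through them. Set against the lowest signal that counts as well above background, its fold is at least 1.08 over both lines, with no bound above 1 in K5. H2-DMb1, a subunit of the class II peptide exchanger, was the gene called lower (limma adjusted p = 0.0446). Its change was -1.92 in K5, on single arrays, and neither K6 array was well above background, so that p rests in part on dim readings. H2-DMa, its partner, had changes of 0.09 in K5 and 2.89 in K6 (limma adjusted p = 0.245). H2-Ab1 and H2-Oa were above background on 1 array each and were not tested.

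Genes with the profile most like those of 4 of the members were found by the distance between log2 values centred on their mean over the 4 arrays. For Cd274 they were Nsa2 (distance 0.03), Pkn3 (0.07) and Lyzl6 (0.09). For H2-K1 they were Prkca (0.08), Dcaf12 (0.09) and Gm36313 (0.12). For B2m they were C130063K03Rik (0.03), Fam69a (0.04) and Parp3 (0.06), and for Cd47 Zfp706 (0.02), Ndc80 (0.04) and Irf5 (0.05). With 4 arrays such likeness is common: 343 tested genes lay within 0.5 of Cd274, 527 of H2-K1, 774 of B2m and 2512 of Cd47.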

How the data were processed

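Per the labels' protocols, RNA of 4 samples was amplified and Cy3-labelled for Agilent arrays read in 1 colour. The deposited scanner intensity is the processed signal of Feature Extraction 10.7.1.1, per the file headers, whereas the submitters' processing notes name 9.5.1.1. It is background-subtracted within an array and not scaled between arrays. The authors' deposited value table, an intensity on a linear scale with a median of 32.97434 in each column, served as an alternative. How it was normalized is not given in the sources.

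Control and outlier spots were left out, spots of a probe averaged, and log2 of the intensity set against the array's 75th percentile. A gene was read from its brightest probe. R 4.3.3 and limma 3.58.1 (lmFit, eBayes; 1 residual and 2.97 prior degrees of freedom) compared halofuginone with control and, in the same model, K6 with K5, blocking on line, and were tested on simulated data. Samples pair by the numbers 5 and 6, which name the cells, and across genes the line difference in controls correlated with that under halofuginone (r = 0.498). A permutation of 2 against 2 arrays cannot give a p below 0.333, so none was used. Changes within a line rest on single arrays and have no test. All arrays lay on 1 slide, so no batch could be tested.

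The members and lists were chosen with earlier results of these data known. Named genes are all 10 members, every list gene past the threshold, and list genes at least 4-fold changed in a line; a few further list genes were named for their role after their values were seen. Marker lists covered epithelial, leukocyte, fibroblast, endothelial and acinar cells. Alternatives were background correction, scaling, filter, probe summary, block, variance trend, a floor for dim values and leaving out a line. Within marker lists, limma also called Muc1 (-3.40), Fbln1 (-1.67) and Cela1 (-2.53) lower and Kdr higher. Kdr was not well above background in control K5, which leaves at least 1.42-fold there, and changed by 2.54 in K6. Untested markers changed at least 4-fold in a line were Dcn, Tek and Itgax, each above background on 1 array. Some list genes that the naming rule covers are not reported here.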

Additional observations from a re-analysis of the deposited data

Results flagged for a closer look

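For 3 of the genes the change after halofuginone had opposite signs in the lines. The change in K6 minus that in K5 was 0.60 for B2m, -1.40 for Erap1 and -1.89 for Nlrc5 on the log2 scale. The difference was not tested, as it rests on single arrays. B2m is well above background on all 4 arrays, but its K6 change of 0.06 takes the other sign under 3 of 6 scalings. Erap1 and Nlrc5 kept opposite signs in the lines under all 6 scalings, with the K5 control of both not well above background.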

How the results depend on the processing

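Over settings that kept all 4 arrays, 86 values of single members for halofuginone kept direction and side of the threshold, 9 passed it newly, 5 lost it (all Tapbp) and 5 changed sign. For the lines 104 kept both and 1 changed sign. Members called for halofuginone numbered 3 with normexp, median centring or an intensity trend, 2 with quantile normalization, the authors' deposited values or a filter on all 4 arrays, and 0 with no filter, the mean over probes, no replicate block, a common floor, or the 75th percentile of probes detected on all 4 arrays, a setting chosen after seeing the data. In each of these 0 cases 3 of the tested members had an unadjusted limma p under 0.05. With no filter that was 3 of 10, beside 15052 of 36918 genes. With the others it was 3 of 9. Beside it, of 19093 genes, stood 6081 (mean over probes), 4492 (no replicate block), 5859 (floor) and 6481 (added scaling). Genes called for halofuginone, 1710 in the report's fit, numbered 5472 with normexp, 4012 with the 4-array filter, 4200 with the trend, 592 with the mean over probes, and 0 with no filter, no replicate block, the floor or the added scaling, where unadjusted p under 0.05 was reached by 15052, 4492, 5859 and 6481. Genes called between lines, 33, numbered 1325 with normexp, 149 with quantile, 296 with median centring, 152 with the authors' values, 305 with the 4-array filter, 293 with the trend, and 0 with no filter, the mean over probes, each probe on its own, no replicate block, the floor or the added scaling (unadjusted 3655, 2728, 4142, 798, 2500 and 2833). Without the replicate block that pairs the arrays of a line, the Tapbp adjusted p was 0.0919. With the mean over probes, the changes of B2m, Erap1, Nlrc5 and Cd47 turned to 0.0503, -0.0624, -0.0489 and -0.00276; the floor turned Nlrc5 to -0.14, and median centring turned the line difference of H2-D1 to -0.0111. Leaving out a line gave ranges of -0.54 to 0.0618 for B2m, -0.41 to 0.99 for Erap1, -0.29 to 1.60 for Nlrc5, -2.50 to -1.87 for Tapbp, -2.44 to -1.52 for Tap2 and -1.90 to -1.36 for Cd274, and leaving out a condition gave line differences of -0.22 to 0.41 for Tapbp, -0.24 to 1.16 for Erap1 and 0.89 to 2.79 for Nlrc5. The median over all tested genes moved by over 0.1 for halofuginone without a filter (-0.34) and with the added scaling (-0.12), from 0.01. The cause of these shifts in calls was not tested. Signal over background limits Tap1, Tap2, Erap1 and Nlrc5, and the number of arrays limits all values.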
